A study of Drosophila melanogaster with 8 samples.

Results

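The regions described here are 1856 accessible regions of the Drosophila melanogaster genome that were present in the peak lists of both somatic cells and primordial germ cells (PGCs) of late embryos and were listed at least as high in somatic cells. They were chosen by their heights: somatic peaks on chromosomes 2, 3, 4 and X with a deposited score of 600 or more, sharing at least 1 bp with a PGC peak and scoring no less than the highest PGC peak they met. A score of 600 stands for a height of 60 RPKM at the summit, a density of reads scaled for length in kilobases and for the mapped reads of each library. On these chromosomes the somatic list held 17411 peaks and the PGC list 19504. Of 6706 somatic peaks of 60 RPKM or more, 4914 met a PGC peak, and 37.8% of those, the 1856 regions (hereafter members), passed the rule. The remaining 3058 shared peaks were lower in somatic cells (lower shared peaks), and 1792 somatic peaks met no PGC peak (somatic-only peaks). The somatic cells were the GFP-negative cells, and the PGCs the GFP-positive cells, sorted from overnight egg collections of flies of the genotype Vas::EGFP, in which the germline protein Vasa carries GFP, so both cell types came from the same embryos and carried the same transgene. Each was profiled in 2 replicates by ATAC-seq, in which a transposase cuts and tags accessible DNA. The somatic sample was a mixture of all other tissues of the embryo, and embryos of an overnight collection differ in age. Fewer cells with an open region and less accessibility per cell therefore cannot be told apart. The 4 small RNA libraries of ovaries in the series were not used here.

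PGCs form at the posterior pole of the early embryo and migrate through the gut to the gonad, while the somatic lineages around them build muscle, nerve, gut, epidermis and blood. Accessible DNA falls into promoters, many of which are open in every tissue, and into enhancers in introns and between genes, which are often open only in the tissues that use them. Heterochromatin near the centromeres consists of satellites, short units repeated in tandem, and of transposable elements, and is compacted as the embryo develops.

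Sequences are shown for the members outside repeats with the largest ratio of somatic to PGC height, for those of largest ratio that hold the Zelda or the Suppressor of Hairless motif or lie in the E(spl) complex, for the peak of largest ratio at Delta and at aop, whose shared peaks are described one by one below, and for tandem repeats. All come from the RefSeq release 6 genome, forward strand, 5′ to 3′, centred on the somatic summit. The first 4 are 100-bp windows in tandem repeats, in which capitals mark a single copy of the repeated unit: chr3R:1456326-1456425 in an intron of Myo81F, chr3L:13292176-13292275 near a start site of lncRNA:CR43912, and the intergenic chr3R:186326-186425 and chr3R:304726-304825 near the left end of that arm. The other 7 are 200-bp windows outside repeat-rich surroundings, in which capitals mark GAGAG (the core bound by the GAGA factor), CAGGTA (bound by Zelda) or GTGGGAA (bound by Suppressor of Hairless, the transcription factor of the Notch pathway), on either strand. They lie in an intron of sty (chr3L:3408976-3409175), near lncRNA:CR45250 (chr3L:11343726-11343925), near lncRNA:CR45737 (chr3L:3395326-3395525), at the start of lncRNA:CR45640 (chr3R:16208326-16208525), at the start of CG43116 in the E(spl) complex (chr3R:25996826-25997025), in an intron of Delta (chr3R:19310726-19310925) and in an intron of aop (chr2L:2165126-2165325).
AATAT repeat in Myo81F: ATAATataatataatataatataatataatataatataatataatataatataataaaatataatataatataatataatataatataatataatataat
AGAT repeat at lncRNA:CR43912: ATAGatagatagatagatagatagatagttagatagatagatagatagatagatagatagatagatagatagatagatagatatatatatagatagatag
12-base unit: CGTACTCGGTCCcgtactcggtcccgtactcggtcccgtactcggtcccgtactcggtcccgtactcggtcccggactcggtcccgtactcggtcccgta
11-base unit: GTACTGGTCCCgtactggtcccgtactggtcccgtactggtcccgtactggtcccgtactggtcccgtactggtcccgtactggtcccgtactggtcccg
sty: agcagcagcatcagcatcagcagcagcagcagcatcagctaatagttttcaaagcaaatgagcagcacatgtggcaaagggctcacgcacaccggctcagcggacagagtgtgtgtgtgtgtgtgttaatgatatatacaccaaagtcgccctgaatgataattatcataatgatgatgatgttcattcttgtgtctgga
lncRNA:CR45250: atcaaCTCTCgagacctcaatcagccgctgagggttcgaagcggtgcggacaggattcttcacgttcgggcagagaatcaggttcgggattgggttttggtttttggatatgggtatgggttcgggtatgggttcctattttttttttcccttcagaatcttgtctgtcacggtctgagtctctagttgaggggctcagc
lncRNA:CR45737: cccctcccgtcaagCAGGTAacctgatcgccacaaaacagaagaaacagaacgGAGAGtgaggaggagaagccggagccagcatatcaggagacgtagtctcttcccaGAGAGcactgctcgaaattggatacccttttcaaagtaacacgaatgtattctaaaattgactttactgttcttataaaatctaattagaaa
lncRNA:CR45640: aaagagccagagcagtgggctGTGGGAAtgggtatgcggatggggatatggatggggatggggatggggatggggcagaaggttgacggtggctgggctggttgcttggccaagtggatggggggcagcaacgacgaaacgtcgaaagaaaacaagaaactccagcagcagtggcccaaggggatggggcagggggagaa
CG43116: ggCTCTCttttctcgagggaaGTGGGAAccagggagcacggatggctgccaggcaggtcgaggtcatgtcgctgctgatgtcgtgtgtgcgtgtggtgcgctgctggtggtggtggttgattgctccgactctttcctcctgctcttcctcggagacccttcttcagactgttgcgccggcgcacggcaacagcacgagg
Delta: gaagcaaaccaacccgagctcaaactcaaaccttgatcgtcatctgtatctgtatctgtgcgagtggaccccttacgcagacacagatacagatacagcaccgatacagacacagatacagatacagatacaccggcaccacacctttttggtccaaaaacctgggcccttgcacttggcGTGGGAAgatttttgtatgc
aop: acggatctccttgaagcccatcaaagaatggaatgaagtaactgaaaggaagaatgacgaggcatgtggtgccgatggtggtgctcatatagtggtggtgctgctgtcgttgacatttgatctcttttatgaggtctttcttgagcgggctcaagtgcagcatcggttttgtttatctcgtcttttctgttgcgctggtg

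The heights chose the members and are therefore given without a test, which the averaged lists would not have allowed. The members reached a median of 73.1 RPKM in somatic cells (quartiles 65.3 and 88.0) and the PGC peaks they met a median of 60.3 RPKM (quartiles 54.9 and 70.5). For lower shared peaks the medians were 74.0 RPKM in somatic cells and 156.2 RPKM in PGCs. The members were thus as high as the lower shared peaks in somatic cells, and the sets differed in the PGC height. Most members exceeded the PGC peak by little: the median ratio of somatic to PGC height was 1.19, with 464 members below 1.1, 493 from 1.1 to 1.2, 720 from 1.2 to 1.5, and 179 (9.64%) at 1.5 or more, of which 15 reached 2. The PGC peak was under 60 RPKM for 900 members (48.5%), between the 50 RPKM at which both lists start and the height that was asked of the somatic peak.

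**Figure D1:**
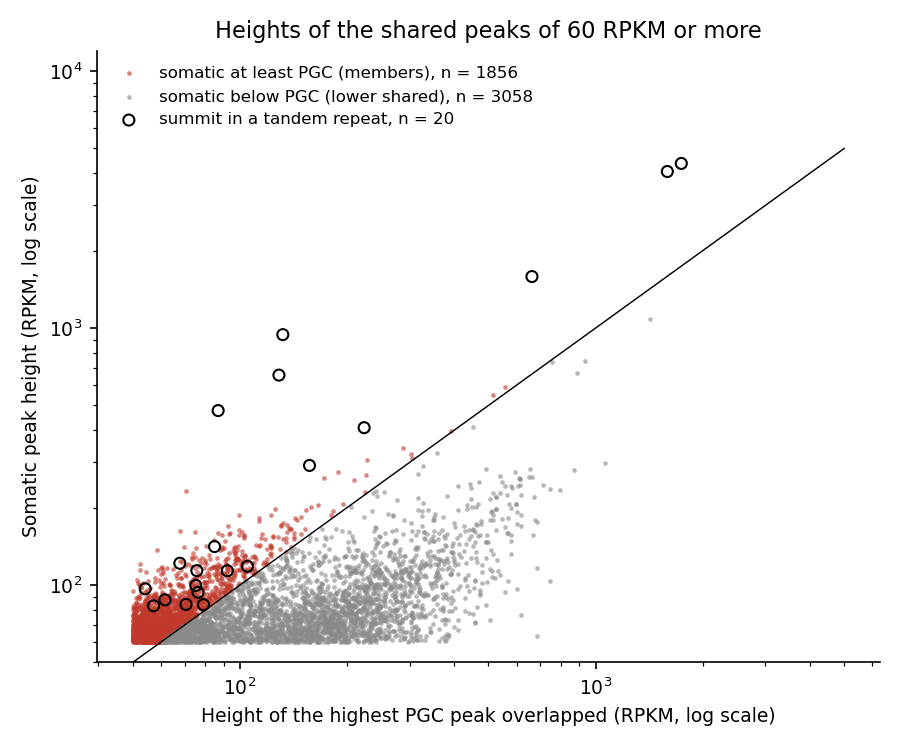
Height of each shared somatic peak of 60 RPKM or more (vertical axis, RPKM) against the highest PGC peak it overlaps (horizontal axis, RPKM), both on log scales, with the line of equal heights. The members (red, n = 1856) crowd near the line, with a median ratio of 1.19, and circles mark the members with a tandem repeat at the summit (n = 20), whose ratios run from 1.06 to 7.14.

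At the edge of the rule, 5 members were of equal height in both lists, among them an intronic site of ab (61.6 RPKM in both) and a promoter site of eEF1gamma (72.8 RPKM in both). Just inside lay an intronic site of Mef2 with 103.5 RPKM in somatic cells and 103.4 RPKM in PGCs, and just outside an intronic site of mwh with 69.2 RPKM in somatic cells and 69.3 RPKM in PGCs. Within 5% of equality there were 227 members above and 211 lower shared peaks below. A further 535 shared somatic peaks were at least as high as the PGC peak but under 60 RPKM, 70 of them at 59 to 60 RPKM, against 101 members at 60 to 61 RPKM.

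The lists need not share a height scale, because coverage is scaled to the mapped reads of each library and the share of reads that fall in peaks was not known. Over all 4914 shared peaks of 60 RPKM or more the median ratio was 0.836. With the PGC heights scaled so that this median became 1, 2457 shared peaks (50%) met the rule, and by the rank of a peak within its own list 3002 (61.1%) did. How many regions were higher in somatic cells thus depended on the scale, whereas the order of the ratios does not depend on a common factor.

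The members were also wide relative to the PGC peaks under them. Their median width was 350 bp against a summed width of 200 bp for the PGC peaks they met, and 1427 members (76.9%) were wider than those PGC peaks. Among lower shared peaks, with the same somatic median of 350 bp, the PGC median was 650 bp and only 440 (14.4%) were wider in somatic cells. At a fixed cutoff the width depends on the height and is no independent measure. The summits of the somatic and the PGC peak lay within 100 bp of each other for 71.1% of members and 70.4% of lower shared peaks, and in the same 50-bp step for 32.0% of members and 39.1% of lower shared peaks.

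Members lay mainly outside promoters. With a promoter defined as within 500 bp of an annotated start site, 317 members (17.1%, exact 95% binomial interval 15.4 to 18.9%) were at promoters, against 1696 lower shared peaks (55.5%, 53.7 to 57.2%) and 179 somatic-only peaks (9.99%, 8.64 to 11.5%). Intergenic sites made up 560 members (30.2%) and 14.0% of lower shared peaks, introns 548 members (29.5%) and 21.1%, and exons 431 members (23.2%) and 9.45%. Seen from the positions, members were 15.7% of the 2013 shared promoter peaks, 59.9% of the 720 exon peaks, 45.9% of the 1193 intron peaks and 56.7% of the 988 intergenic peaks, beside 37.8% of all shared peaks. The intervals cover counting error only, since neighbouring peaks are not replicates.

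**Figure D2:**
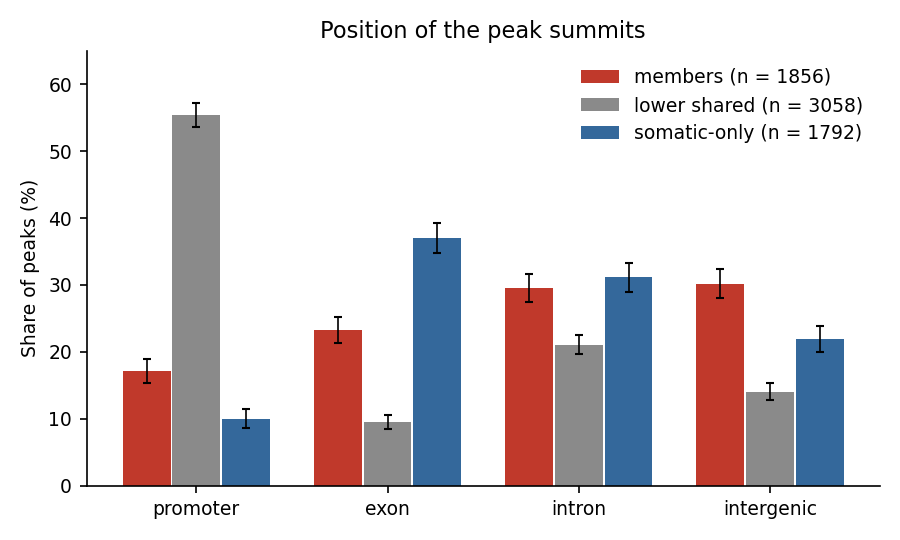
Share of peaks (vertical axis, %) whose summit lies within 500 bp of a start site, in an exon, in an intron or between genes (horizontal axis), for members, lower shared peaks and somatic-only peaks of 60 RPKM or more, with exact 95% binomial intervals that cover counting error only. Promoters held 17.1% of members, 55.5% of lower shared peaks and 9.99% of somatic-only peaks.

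The low share of promoters held at each height. It was 15% of members against 52.6% of lower shared peaks at 60 to 80 RPKM in somatic cells, 17.4% against 62.3% at 80 to 120 RPKM, and 31.6% against 53.7% at 120 RPKM or more. Grouped by the height of the PGC peak, promoters made up 18.3% of members (15.5 to 21.4%) and 22.8% of lower shared peaks (18.9 to 27.1%) at 60 to 80 RPKM, 26.8% against 44.3% at 80 to 120 RPKM and 32.2% against 66.0% at 120 RPKM or more, so that the gap was narrow at low PGC peaks. Exonic members were low peaks: 399 of 431 (92.6%) were under 80 RPKM in somatic cells, their median was 65.8 RPKM in somatic cells and 56.5 RPKM in PGCs, and their sequence had a median GC content of 58.2%, against 53.7% for members at promoters, 49.3% in introns and 50.2% between genes. Among members of 80 to 120 RPKM only 4.84% were exonic, and 37.7% were intronic and 40% intergenic. Base composition moved with the exonic share, and its part in it was not tested.

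The 3 largest ratios of somatic to PGC height were found at tandem repeats. A summit was counted as a tandem repeat where at least 90% of the bases in the 151-bp window around it equalled the base a fixed step of up to 12 bases further on, a criterion set after the highest members had been seen. All 20 shared peaks that met it were members (1.08% of members, 0.659 to 1.66%), against 0 of 3058 lower shared peaks, with an exact upper limit of 0.121%, and beside 37.8% of all shared peaks. A further 13 were somatic-only peaks (0.725%). Of the 15 members with a ratio of 2 or more, 6 were tandem repeats, and of the 9 members of 400 RPKM or more, 7 were.

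Among the repeats rich in A and T, members with the same unit had similar ratios. The 3 AATAT repeats, a unit known as an abundant satellite of this species, reached 943.2 RPKM in somatic cells and 132.1 RPKM in PGCs at chr3R:1456101-1456700, 477.5 against 86.9 RPKM at chr3R:1461901-1462250 (both in introns of Myo81F, a myosin gene that spans heterochromatin), and 656.2 against 128.8 RPKM at chr3R:4173901-4174200 near CG12581. Their ratios of 7.14, 5.49 and 5.09 were the largest of all members. The AGAT repeats at lncRNA:CR45232 (409.7 RPKM in somatic cells and 223.6 RPKM in PGCs) and lncRNA:CR43912 (121.6 and 67.8 RPKM) had ratios of 1.83 and 1.79.

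The other large group was the dodeca satellite, a GC-rich repeat of the heterochromatin of chromosome 3 near the centromere, whose units ACCGAGTACGGG (12 bases) and ACCAGTACGGG (11 bases) accounted for 8 members on arm 3R. They were modest in height, 83.9 to 141.2 RPKM in somatic cells and 61.6 to 105.0 RPKM in PGCs, with ratios from 1.06 to 1.66. The 200-bp windows had a GC content of 0% at the AATAT repeats of Myo81F and 61.7 to 66.2% at dodeca, so tandem repeats of opposite base composition were members. The file labels speak of uniquely mapping reads, and reads from copies of a satellite elsewhere in the genome can be placed at an assembled copy only where they differ from the others, so the level of a given copy is uncertain.

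**Figure D3:**
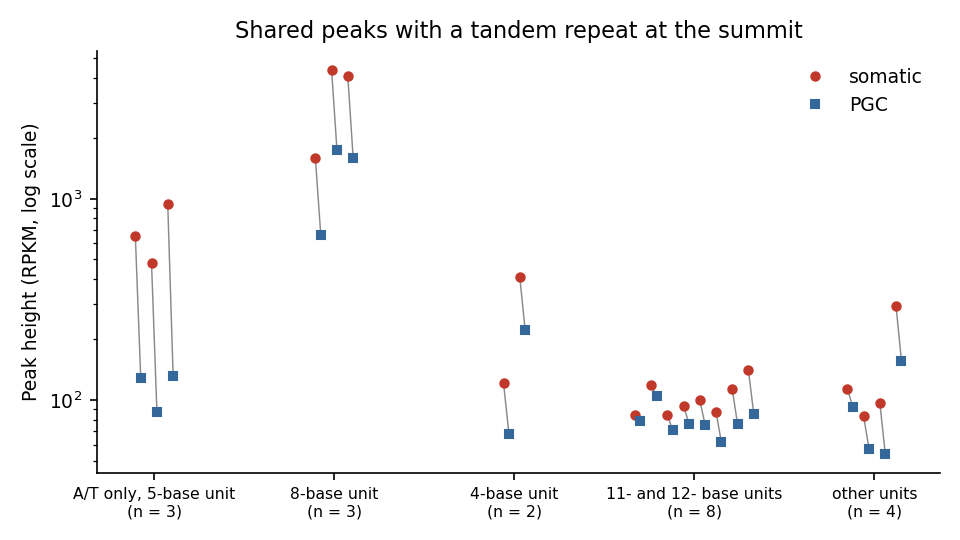
Heights (vertical axis, RPKM, log scale) of the 20 shared peaks with a tandem repeat at the summit in somatic cells (red circles) and PGCs (blue squares), joined for each peak and grouped by the length of the repeated unit (horizontal axis). Somatic heights are above PGC heights in all 20, by 5.09 to 7.14 times for the repeats of A and T with a 5-base unit and 1.06 to 1.66 times for the units of 11 and 12 bases.

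Heterochromatin was frequent among the members beyond these satellites. Surroundings in which at least 30% of the bases within 50 kb of the summit are marked as repeats in the genome held 438 members (23.6%, 21.7 to 25.6%), against 8.80% (7.82 to 9.86%) of lower shared peaks and 12% of somatic-only peaks. An annotated transposable element copy was overlapped by 391 members (21.1%), by 239 lower shared peaks (7.82%) and by 285 somatic-only peaks (15.9%). The non-LTR elements jockey, F and Rt1b were met by 52, 33 and 32 members against 7, 3 and 9 lower shared peaks. The LTR elements Stalker2, rover and Tabor were met by 15, 11 and 9 members and by 0 lower shared peaks each. Other LTR elements were met by both sets, diver by 15 members and 16 lower shared peaks, HMS-Beagle by 16 and 15, and 412 by 19 and 13. These are counts of peaks, not of copies. In all, 580 members (31.3%) were over 10 kb from any start site, against 10.7% of lower shared peaks and 20.0% of somatic-only peaks. Copies of an element can be near-identical, so how reads were shared among them is uncertain.

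Members stood close together in several heterochromatic stretches. On X, 22 of 27 shared peaks of chrX:22057551-22117600 were members, with somatic heights of 60.3 to 139.6 RPKM and a median ratio of 1.22 among the members. That stretch was itself found as a run of members, so a high share of members was built into it. The flamenco locus (lncRNA:flam), a source of piRNAs that silence transposable elements in the somatic cells of the ovary, held 9 members and 2 lower shared peaks, with member heights of 60.3 to 92.7 RPKM in somatic cells and 52.2 to 82.5 RPKM in PGCs. Myo81F held 49 members and 34 lower shared peaks, so shared peaks of either kind were mixed there. Without the 438 members in such surroundings, 1418 members remained, of which 22.3% were at promoters, against 59.7% of lower shared peaks with the same restriction.

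Outside the heterochromatin the longest run of members was the Enhancer of split complex, or E(spl) complex, on chr3R:25996151-26040950. It holds genes for basic helix-loop-helix repressors and small Bearded-family proteins that are switched on by Notch signalling between neighbouring cells. The stretch was found as a run of members and begins and ends with a member, so a high share of members was built into it. Of 21 shared peaks in these 44.8 kb, 20 were members, beside 37.8% of all shared peaks. Their somatic heights ran from 65.5 to 268.2 RPKM with a median of 118 RPKM, the PGC heights from 50.9 to 225.8 RPKM with a median of 78.2 RPKM, and the ratios from 1.07 to 1.89. The highest was the promoter of E(spl)mbeta-HLH, with 268.2 RPKM in somatic cells and 225.8 RPKM in PGCs. The largest ratio, 1.89, was that of the start of CG43116, with 188.1 and 99.5 RPKM. At E(spl)m5-HLH, 3 members had 93.3, 76.6 and 95.7 RPKM in somatic cells against 65.6, 54.2 and 54.8 RPKM in PGCs. The start of E(spl)m8-HLH had 138.5 and 130.0 RPKM.

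The exception was a peak 712 bp from the start of E(spl)m7-HLH, with 113.6 RPKM in somatic cells and 284.7 RPKM in PGCs. Of the 20 members, 12 were at promoters, in contrast to 17.1% of all members. The GTGGGAA motif was found within 100 bp of the summit in 6 of the 20, and also in the exception near E(spl)m7-HLH. It was in 47 of all 1856 members (2.53%), 88 of 3058 lower shared peaks (2.88%) and 2.12% of all 13945 protein-coding promoters. This motif was chosen after the complex had been seen, and its matches are a description of letters, not of binding.

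**Figure D4:**
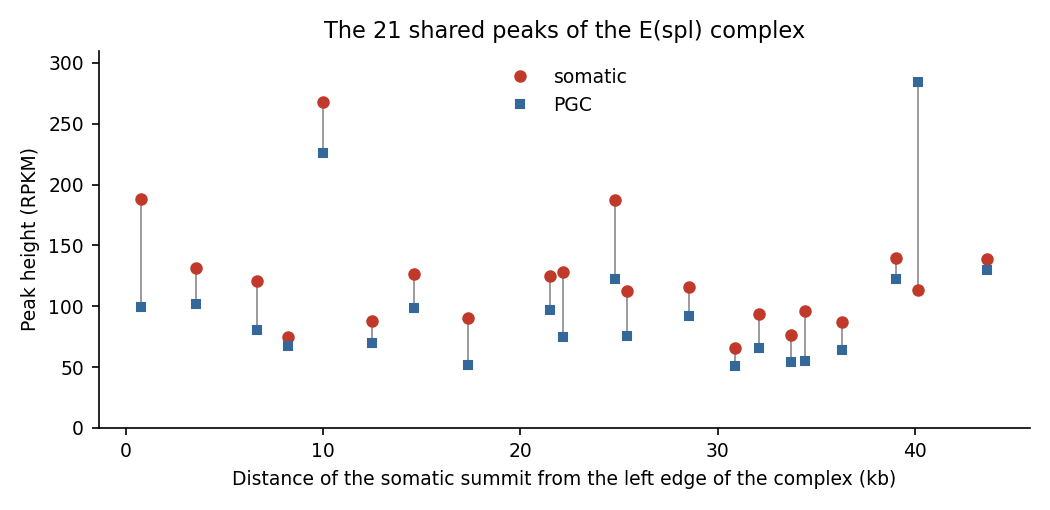
Heights (vertical axis, RPKM) of the 21 shared peaks of the E(spl) complex in somatic cells (red circles) and PGCs (blue squares), joined for each peak, by distance of the summit from the left edge of the complex (horizontal axis, kb). The stretch was found as a run of members. The somatic height is the higher in 20 of 21, and the exception, near E(spl)m7-HLH, has 113.6 RPKM in somatic cells and 284.7 RPKM in PGCs.

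Named genes of receptor tyrosine kinase and Notch signalling are given with all their shared peaks. They were not drawn from a list, so nothing follows for the pathways. At sty, which encodes Sprouty, an inhibitor of FGF and EGF receptor signalling, 4 of 5 shared peaks were members. Its intronic peak at chr3L:3408901-3410300 had 162.5 RPKM in somatic cells and 68.0 RPKM in PGCs, a ratio of 2.39 that was the largest among members whose window was not mostly repeat sequence. The other members of sty had 85.1, 76.6 and 74.7 RPKM in somatic cells against 59.5, 64.3 and 62.5 RPKM in PGCs, and its lower shared peak 60 against 80.8 RPKM. At aop, which encodes the repressor Yan of the same pathway, 4 members had 148.4, 86.9, 128.3 and 74.0 RPKM in somatic cells against 90.6, 54.2, 73.3 and 50.9 RPKM in PGCs. The 2 lower shared peaks of aop had 61.5 and 76.3 RPKM in somatic cells against 147.1 and 169.8 RPKM in PGCs, so the gene held regions on either side of the line. At Delta, a ligand of Notch, all 3 shared peaks were intronic members, with 117.9, 80.8 and 67.7 RPKM in somatic cells against 60.3, 50.4 and 62.6 RPKM in PGCs. Egfr, the EGF receptor, had 3 members of 83.7, 93.8 and 64.6 RPKM in somatic cells against 50.5, 87.8 and 53.3 RPKM in PGCs, and lower shared peaks of 91.7 against 107.3 RPKM at a promoter and 65.4 against 65.9 RPKM. pnt, an ETS activator of the pathway, had a single member, in an intron, of 116.9 against 79.1 RPKM. Its lower shared peaks, of which the last 2 were at promoters, had 63.8, 74.7 and 71.6 RPKM in somatic cells against 85.0, 270.5 and 171.9 RPKM in PGCs.

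The other members with a ratio over 2 outside tandem repeats lay at genes of varied kinds. An intron of pan, which encodes the TCF factor of Wingless signalling, had 137.3 RPKM in somatic cells and 58.4 RPKM in PGCs. That peak overlapped an annotated copy of the transposable element I. The start of lncRNA:CR45640 had 161.3 against 74.9 RPKM, and the region near lncRNA:CR45250 had 120.5 against 52.5 RPKM. An intron of unc-5, a Netrin receptor of growing axons, had 112.0 against 54.4 RPKM. The start of sd, which encodes the DNA-binding partner of Yorkie, had 104.8 against 51.3 RPKM, and that of Dtg, a target of Dpp signalling, 141.0 against 69.5 RPKM. The remaining ones were next to CG43861 (233.3 RPKM in somatic cells against 70.8 RPKM in PGCs), where 89.0% of the window was repeat sequence, and in MFS17 (114.6 against 52.5 RPKM), which lies in repeat-rich surroundings. The PGC peaks of all these regions were low, between 51.3 and 74.9 RPKM.

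Of the 10 highest members, 7 were tandem repeats, and the other 3 had nearly equal heights in both lists: 587.9 RPKM in somatic cells against 556.5 RPKM in PGCs near lncRNA:CR45199 on chromosome 4, in copies of INE-1 and R1A1, 546.7 against 514.7 RPKM in an exon of CG44666, and 398.0 against 392.6 RPKM at the intergenic chr2R:4860401-4862100, which overlaps copies of G6 and rooA. The next highest outside repeats were promoters. HmgZ, which encodes a high mobility group protein of chromatin, had 341.7 and 322.5 RPKM in somatic cells against 288.4 and 303.7 RPKM in PGCs. sns, a receptor of the myoblasts that fuse into muscle fibres, had 260.4 against 172.5 RPKM, trn, a leucine-rich repeat membrane protein, 256.0 against 209.9 RPKM, and Optix, a homeobox gene of the head and eye, 230.6 against 224.9 RPKM. These promoters were high in both cell types, with ratios between 1.03 and 1.51.

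Members were spread over many genes. By the gene that held the summit or started nearest within 10 kb, 1524 members fell to 1092 genes and 332 to none. At least 3 members were found at 75 genes, of which 13 had members in repeat-rich surroundings. Of the other 62, 36 had no member that overlapped a transposable element, while in 13 every member did. Among these 62, jing, a zinc finger gene of glia and trachea, had 7 members and 7 lower shared peaks, tna 7 and 1, EcR, the ecdysone receptor, 6 and 7, Ppn 5 and 0, ush, a cofactor of GATA factors, 5 and 3, and robo2, a receptor of axons and muscles for the signal Slit, 4 and 1. At EcR the members were all intronic, the highest with 156.5 RPKM in somatic cells and 99.3 RPKM in PGCs, and the promoter was a lower shared peak of 134.2 RPKM in somatic cells and 264.4 RPKM in PGCs. At robo2 the promoter had 201.9 RPKM in somatic cells and 462.2 RPKM in PGCs, while the members reached 64.4 to 75.9 RPKM in somatic cells. At ush promoters were on both sides: 134.0 against 96.8 RPKM for a member and 63.2 against 255.3 RPKM for a lower shared peak.

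The introns of jing show how members, lower shared peaks and somatic-only peaks alternate within a gene. Its 7 members had 79.9, 89.3, 85.4, 74.9, 164.2, 86.4 and 60.9 RPKM in somatic cells against 56.2, 50.9, 51.1, 55.1, 99.5, 61.6 and 57.0 RPKM in PGCs, and both of its shared promoter peaks were lower in somatic cells, with 62.3 and 76.8 RPKM against 168.2 and 101.4 RPKM in PGCs. A further 10 peaks of jing were somatic-only. At tna the promoter was itself a member, with 152.3 RPKM in somatic cells and 114.6 RPKM in PGCs, and the members in its introns ran from 61.4 to 83.6 RPKM in somatic cells and from 50.9 to 76.2 RPKM in PGCs. The lower shared peak of tna was close to equality, with 165.0 and 169.7 RPKM.

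By chromosome arm, members were 41.7% of the shared peaks on 3R (38.9 to 44.5%), 40.2% on 3L (37.2 to 43.2%), 38.6% on 2R (35.8 to 41.5%), 33.8% on 2L (30.4 to 37.2%), 30.3% on X (26.7 to 34.0%) and 27.1% on chromosome 4 (15.3 to 41.8%). Members were thus found on every arm, with a higher share on either arm of chromosome 3 than on X.

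This arrangement, members outside promoters beside a lower shared promoter, was common but not particular to genes with members. Of 841 genes with a member outside promoters, 274 also had a shared promoter peak, and for 215 of these (78.5%) every shared promoter peak was lower in somatic cells. Their shared promoter peaks were members in 61 of 327 cases (18.7%, 14.6 to 23.3%), against 256 of 1686 (15.2%, 13.5 to 17.0%) of the other shared promoter peaks.

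Members were compared with 13 lists of genes known from particular tissues or responses. Among all shared peaks at protein-coding genes, that is in the gene or within 500 bp of its start, 33.0% were members. For genes of muscle and mesoderm the count was 16 of 32 (50%, 31.9 to 68.1%), for genes of blood and fat body 10 of 20 (50%, 27.2 to 72.8%), for glia 5 of 13 (38.5%), for gut and endoderm 8 of 21 (38.1%, without Dl, which the annotation holds as Delta), for neurons 11 of 32 (34.4%) and for the ecdysone response 18 of 53 (34.0%). For trachea it was 4 of 13 (30.8%), for salivary gland 3 of 10 (30%), for the somatic gonad 4 of 18 (22.2%), for the cytoskeleton and adhesion genes of most cells also 4 of 18, for epidermis and cuticle 5 of 29 (17.2%, 5.85 to 35.8%), and for heat shock and immediate early genes 2 of 18 (11.1%, 1.38 to 34.7%). For the germline list it was 1 of 3. The intervals are wide, and each included the 33.0% of all protein-coding genes.

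**Figure D5:**
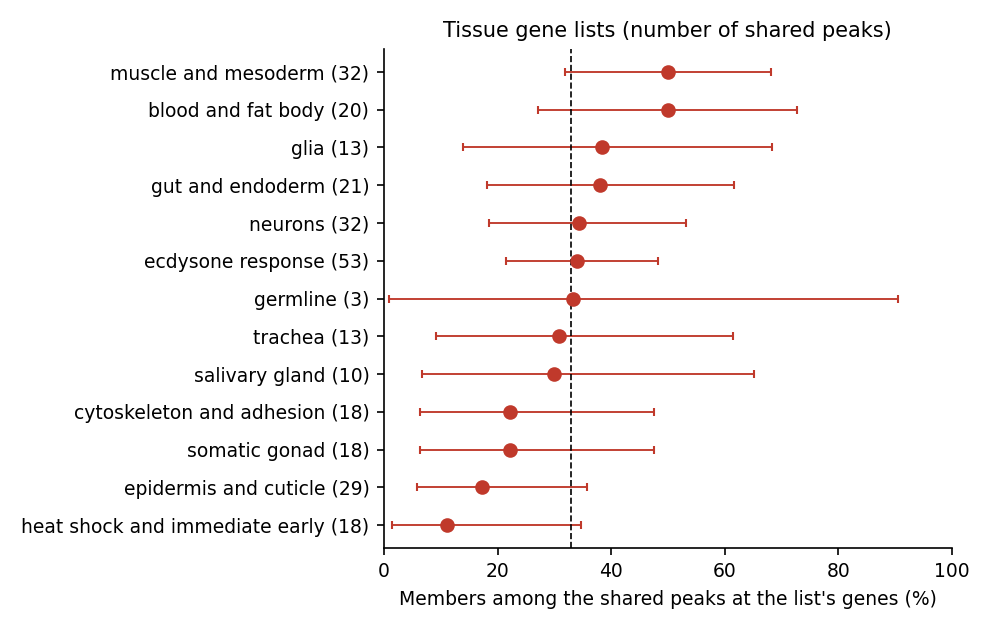
Members as a share of the shared peaks at the genes of each list (horizontal axis, %), with exact 95% binomial intervals that cover counting error only and the number of shared peaks in brackets. The dashed line marks 33.0%, the share at all protein-coding genes, and the shares run from 50% for muscle and for blood to 11.1% for heat shock and immediate early genes.

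By genes, 13 of 34 of the muscle list, 6 of 11 of the gut list, 9 of 24 of the neuronal list, 4 of 10 of the glial list and 4 of 20 of the blood and fat body list had a member, beside 6.88% of all 13945 protein-coding genes. Every other list was above 6.88% too, with 3 of 13 cytoskeleton and adhesion genes, 2 of 17 heat shock and immediate early genes and 1 of 10 germline genes. A lower shared peak was also more frequent in each list than the 15.6% of all protein-coding genes, with 50% of the neuronal and 32.4% of the muscle list. Genes of the muscle and neuronal lists are long, with a median of 8814 bp and 13833 bp against 2166 bp for all genes. The share with a member was 3.46% of genes under 5 kb, 12.1% at 5 to 20 kb and 29.5% at 20 kb or more. Gene length thus moved with the count of genes, and its part in these counts was not tested.

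In the muscle list 13 of 34 genes had a member, and 16 of 32 shared peaks were lower in somatic cells. sna, a factor of the early mesoderm, had 111.4 RPKM in somatic cells and 91.7 RPKM in PGCs at its start. htl, the FGF receptor of the mesoderm, had 151.1 against 117.9 RPKM at its start and 76.9 against 65.7 RPKM in an intron. Mef2, which activates muscle genes, had a promoter on either side: 165.6 against 152.6 RPKM for a member and 61.8 against 136.8 RPKM for a lower shared peak, beside intronic peaks of 103.5 against 103.4 RPKM (member) and 70.0 against 111.3 RPKM (lower shared). slou, an identity factor of single muscles, had 79.7 against 61.4 RPKM. The fusion genes sns, kirre and mbc all had a member, with 88.8 and 82.6 RPKM against 60.8 and 52.4 RPKM for kirre, the first of which also lies in the gene w, and 66.1 against 54.6 RPKM for mbc. The promoter of mbc was lower in somatic cells, with 74.0 against 285.8 RPKM, as were 2 intronic peaks of 121.2 and 72.0 RPKM over the same PGC peak, and kirre had lower shared peaks of 101.8 against 110.0 RPKM and 66.0 against 101.4 RPKM at starts of other genes within it. Structural genes were represented by Act57B, a muscle actin, with 143.3 against 111.3 RPKM, Mlc2, a myosin light chain, with 86.2 against 71.2 RPKM, and sls, a titin-like protein, with 67.5 against 51.3 RPKM. Except at sns and in an intron of kirre, which overlapped a copy of roo, the ratios of these members were under 1.5. The shared peaks of twi (68.5 against 96.3 RPKM), tin (60.3 against 165.8 RPKM) and Mhc (65.4 against 342.7 RPKM) were lower in somatic cells. So were those of lbe (91.1 against 329.4 RPKM) and stumps (84.5 against 104.5 RPKM). Tm1 had a lower shared peak of 68.3 against 99.9 RPKM at the start of MRG15, and sls one of 65.3 against 73.1 RPKM at the start of an antisense RNA. The region that bs, the serum response factor, shares with its antisense RNA had 157.9 RPKM in somatic cells and 115.7 RPKM in PGCs. The fusion factor lmd had a promoter member of 61.2 against 56.4 RPKM. The homeobox gene ap had an exonic member of 71.4 against 52.2 RPKM and lower shared peaks of 72.7 against 75.7 RPKM and, at its promoter, 175.0 against 302.6 RPKM.

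In the lists of other tissues, the GATA factor genes of the gut and blood had members of 70.1 RPKM in somatic cells against 51.3 RPKM in PGCs (GATAe) and 65.8 against 55.9 RPKM (srp), which also had a lower shared peak of 71.7 against 104.8 RPKM. Of the 21 shared peaks of the gut list, 13 were lower in somatic cells. Among them were the promoters of cad (90.8 against 312.7 RPKM), hkb (130.0 against 282.5 RPKM), Fas3 (108.7 against 315.8 RPKM) and fkh (229.8 against 253.7 RPKM). Those at drm had 71.8, 103.8 and 71.3 RPKM over a PGC peak of 458.8 RPKM. Neuronal members included the neuroblast gene wor (92.1 against 63.6 RPKM) and elav, a marker of neurons (76.5 against 70.5 RPKM), whose other shared peaks had 102.7 and 78.6 RPKM in somatic cells over a PGC peak of 291.9 RPKM. Of the 32 shared peaks of the neuronal list, 21 were lower in somatic cells. Among them were the promoters of dpn (118.1 against 204.8 RPKM), SoxN (200.5 against 449.7 RPKM), D (197.1 against 434.7 RPKM), vnd (136.4 against 212.8 RPKM) and scrt (80.2 against 179.1 RPKM). Of the tracheal genes, rib had members of 94.8 and 60.7 RPKM in somatic cells against 50 and 57.0 RPKM in PGCs, while its promoter was lower in somatic cells, with 205.0 against 434.3 RPKM. trh had an exonic member of 67.7 against 53.0 RPKM and a member of 70.6 against 61.4 RPKM at the start of lncRNA:CR45378, while its promoter and an intronic peak had 103.3 and 237.3 RPKM in somatic cells over a PGC peak of 742.3 RPKM. The other shared peaks of the tracheal list were promoters lower in somatic cells. They were those of bnl (122.4 against 433.7 RPKM), vvl (193.7 against 325.2 RPKM), salm (127.1 against 460.5 RPKM), esg (103.1 against 494.5 RPKM), kni (84.1 against 167.3 RPKM) and knrl (77.4 against 227.7 RPKM). The PGC peaks that the promoters of rib, trh and mbc met were thus far higher than those met by any member of these genes. At trh and mbc the same PGC peak also met intronic peaks, so its height need not be that at the promoter. In the somatic gonad list, Sox100B, a factor of the male gonad, had an intronic member that overlapped a copy of springer and an exonic member. These had 171.4 and 74.0 RPKM in somatic cells against 136.1 and 50.4 RPKM in PGCs. Its lower shared peak of 151.7 against 163.4 RPKM overlapped springer too. Six4 had members of 88.7 and 82.7 against 52.4 and 62.3 RPKM. Of the 18 shared peaks of this list, 14 were lower in somatic cells. Among them were promoters of zfh1 (164.9 against 451.8 RPKM), abd-A (113.5 against 207.9 RPKM), Abd-B (188.8 against 353.9 RPKM), ems (164.2 against 275.6 RPKM) and eya (118.8 against 120.3 RPKM). Among genes of the germline list AGO3, of the piRNA pathway, alone had a member, in an intron (79.3 against 50.9 RPKM) where 95.5% of the window was repeat sequence, and a lower shared peak of 72.5 against 180.9 RPKM. The shared peak within vas lay at the start of the nested gene vig and was lower in somatic cells, with 95.7 RPKM against 158.1 RPKM in PGCs. In the list of heat shock and immediate early genes, which respond to the handling of tissue, the members were low peaks of kay (61.1 against 50 RPKM) and puc (60.5 against 52.9 RPKM), and the other shared peaks of both genes were lower in somatic cells, the promoter of kay having 127.0 against 222.0 RPKM.

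Some members of these lists lay in transposable element insertions within the genes. The 3 members of fne, which encodes a neuronal RNA-binding protein, overlapped a copy of HMS-Beagle and had 117.9, 142.2 and 66.6 RPKM in somatic cells against 91.8, 98.5 and 55.5 RPKM in PGCs. The 4 other shared peaks of fne were lower in somatic cells. Those of 64.0 against 92.2 RPKM and 72.5 against 113.2 RPKM overlapped HMS-Beagle too, so the overlap was not particular to members. At Hr4, a nuclear receptor of the ecdysone response, 2 of 4 members overlapped a copy of Stalker2, with 91.6 and 89.8 RPKM in somatic cells against 57.9 and 55.3 RPKM in PGCs, and the others had 90.8 and 81.3 against 73.5 and 52.6 RPKM. A further 3 shared peaks of Hr4 had 85.1, 89.9 and 65.3 RPKM in somatic cells against 163.3, 177.2 and 148.9 RPKM in PGCs. The member of scrib, a gene of cell polarity, overlapped a copy of Stalker (72.1 against 57.5 RPKM), and its promoter was a lower shared peak of 99.6 against 291.1 RPKM. The members of the next genes overlapped no annotated copy. bowl, a zinc finger gene of the hindgut, had 99.3, 92.2 and 60.2 RPKM in somatic cells against 68.7, 61.4 and 50.4 RPKM in PGCs, and a lower shared promoter peak of 104.4 against 146.0 RPKM. hth, a homeobox gene, had members of 93.7, 78.8 and 89.6 against 60.6, 69.8 and 83.2 RPKM and more lower shared peaks than members, namely 4, the promoter having 195.0 against 511.0 RPKM.

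Basement membrane genes stood out when the members were read through, and the list was drawn up after their values were seen, so its counts support nothing by themselves. Of 22 shared peaks at 14 such genes, 16 (72.7%) were members, beside 33.0% at all protein-coding genes. Ppn, which encodes papilin, had 5 members and 0 lower shared peaks, with 64.8 to 89.6 RPKM in somatic cells and 50.9 to 71.1 RPKM in PGCs. LanB2, a laminin chain, had 126.4, 81.2 and 67.7 RPKM in somatic cells against 82.3, 60.6 and 50.4 RPKM in PGCs, and prc, encoding pericardin, 92.9, 97.5 and 66.0 against 57.7, 77.5 and 54.4 RPKM. The collagen IV genes vkg (79.6 and 74.0 against 61.2 and 56.2 RPKM) and Col4a1 (79.1 against 61 RPKM) and the collagen-modifying PH4alphaEFB (100.4 against 52.0 RPKM) had members too. Of the 16, 11 were exonic. Members were 59.9% of all shared exon peaks and 15.7% of all shared promoter peaks, so the share depends on the positions of the peaks compared. For genes of ribosomal proteins, a list also drawn up afterwards, 4 of 27 shared peaks (14.8%) were members, beside the same 33.0%. The part of position in the shares of both lists was not tested. The basement membrane list also had 6 lower shared peaks. The promoters of LanA, Col4a1 and LanB1 had 98.3, 79.3 and 68.9 RPKM in somatic cells against 228.0, 152.0 and 97.5 RPKM in PGCs. Exonic peaks of wb, SPARC and Col4a1 had 61.5, 63.7 and 62.5 against 108.7, 64.2 and 63.4 RPKM.

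Short motifs of known factors were searched on both strands within 100 bp of the summits and, for all 13945 protein-coding promoters, within 100 bp of the outermost start. No motif contains another. GAGAG was found in 638 members (34.4%, 32.2 to 36.6%), 46.4% of lower shared peaks (44.6 to 48.2%), 27.8% of somatic-only peaks and 22.5% of all protein-coding promoters. At promoters the shares were close, 45.7% of members and 45.5% of lower shared peaks, and outside promoters they were 32.0% (29.7 to 34.4%) and 47.5% (44.8 to 50.2%). CAGGTA, the site of Zelda, a factor that opens the genome of the early embryo, was found in 168 members (9.05%, 7.78 to 10.4%), 6.74% of lower shared peaks (5.87 to 7.68%), 6.98% of somatic-only peaks and 4.30% of all promoters. It occurs in the printed window near lncRNA:CR45737, which had 110.6 RPKM in somatic cells and 60.1 RPKM in PGCs.

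The motifs of promoters that are active in most cells were rare in the members and in somatic-only peaks alike. TATCGATA, bound by DREF, was in 1 member (0.0539%) against 71 lower shared peaks (2.32%) and 2 somatic-only peaks (0.112%), and GGTCACAC, bound by M1BP, in 2 members (0.108%) against 127 lower shared peaks (4.15%) and 6 somatic-only peaks (0.335%). At promoters alone each was in 0 of 317 members, with an exact upper limit of 1.16%, and in 0 of 179 somatic-only peaks, with an upper limit of 2.04%, against 68 (4.01%) and 119 (7.02%) of 1696 lower shared peaks, and 7.84% and 6.76% of all protein-coding promoters. For the other motifs the shares of members and of lower shared peaks had overlapping intervals. AGATAA, the site of GATA factors, was in 5.50% of members, 6.90% of lower shared peaks and 10.8% of all promoters. The E-box CAGCTG was in 11.7%, 12.6% and 13.8%, and the E-box CATATG in 5.44%, 6.18% and 3.93%. TGANTCA (AP-1) was in 3.56%, 2.91% and 3.79%, and CCGGAA (ETS factors, added later) in 5.66%, 4.64% and 5.94%. GAANNTTC (heat shock factor) was in 2.91%, 4.12% and 6.67%, and TGTTTAC (forkhead factors) in 2.86%, 4.09% and 6.6%. AACCGGTT (Grainyhead) was in 4 members, 13 lower shared peaks and 0.488% of all promoters, and the Mef2 motif in 1 member, 5 lower shared peaks and 0.301% of all promoters. A match is a run of letters, and no match says nothing of the factor.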

How the data were processed

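The authors trimmed reads with cutadapt (4.2), aligned them with Bowtie2 (2.5.1) to release 6 (dm6), handled alignments with SAMtools (1.17) and made RPKM coverage with deepTools (3.5.4), versions per the submitters' processing notes. They averaged both replicates and called peaks on the average with MACS2 bdgpeakcall. The score deposited by the authors is 10 times the height at the summit, truncated, and was divided by 10. The lists hold no replicate and no depth per sample, so no test between cell types was possible, and precision cannot be given. Peak borders lie on 50-bp steps. Overlaps, positions and motifs were computed with Python 3.11.15, numpy 2.4.6, pandas 2.3.3 and scipy 1.17.1, with the Ensembl annotation and the RefSeq genome of release 6, after testing on simulated data. A tandem repeat unit among the highest members is not reported here. Of the list symbols, 7 were not matched to the annotation, which may hold them under other symbols, and were left out.

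The members, gene lists and motifs were chosen with earlier results of these data known. Genes named are those of the 10 highest members, the 15 largest ratios, genes with 3 or more members and list genes with a member. Genes at the edge of the rule, the next highest members outside repeats (HmgZ also has 3 or more members), list genes without a member and non-coding genes near a sequence shown were named after their values were seen. Basement membrane genes, the GTGGGAA and CCGGAA motifs, tandem repeats and the restriction to surroundings poor in repeats were chosen after seeing the data. So were the stretches with runs of members and the genes named in them.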

Additional observations from a re-analysis of the deposited data

Results flagged for a closer look

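On the Y chromosome and on unplaced sequences, which were left out of the report, 850 of 1186 shared peaks of 60 RPKM or more (71.7%, exact 95% binomial interval 69.0 to 74.2%) were at least as high in somatic cells as in PGCs, a signal outside the chromosomes described. The share was 64.2% of 162 shared peaks on Y and 72.9% of 1024 on unplaced sequences, beside 37.8% on chromosomes 2, 3, 4 and X. These sequences are rich in repeats, and the part of repeat copies in the share was not tested.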

How the results depend on the processing

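No paired analysis was possible because the deposited lists are averages of both replicates and no test was made. For the same reason no replicate could be left out. The number of members, 1856, was 675 with a minimum of 80 RPKM, 907 with a reciprocal overlap of 50%, 3002 by rank within each list and 179 at 1.5 times the PGC height or more. It stayed within 1.5 times of 1856 with no minimum (2391), with the PGC peak at the somatic summit (1341), with scaled PGC heights (2457) and without repeat-rich surroundings (1418). The share of members at promoters, 17.1%, was 10.7% within 250 bp and 30.01% within 1000 bp of a start site, against 42.5% and 68.7% of lower shared peaks, and it was 20.7% for members of 80 RPKM or more, 22.3% without repeat-rich surroundings and 17.3% at 1.5 times or more. On scaled heights 19.3% of the peaks chosen and 62.6% of the others were at promoters, and by rank 24.8% and 66.4%. The E(spl) complex, itself found as a run of members, gave 20 of 21 shared peaks under either scale and 6 of 21 at 1.5 times or more. The scaling lowered all PGC heights by a common factor, so its count could not fall and tests nothing. Exonic peaks were 5.59% of members at 1.5 times or more. Tandem repeats were at 28 members and 1 lower shared peak with an identity of 80%, and at 17 members with 95%. With start sites only, 8 of the 34 muscle genes had a member. Motif windows of 250 bp to each side held more matches, GAGAG in 57.0% of members. Depth per sample was not given, so the counting error of a height is unknown.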
